A study of Mus musculus with 9 samples.

Results

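The 10 genes examined here build the non-collagenous part of the basement membrane, and their transcripts were measured in mouse right ventricular myocardium by RNA sequencing. They are the laminin alpha chains Lama2, Lama4 and Lama5, the beta chains Lamb1 and Lamb2, the gamma chain Lamc1, the nidogens Nid1 and Nid2, and the proteoglycans perlecan (Hspg2) and agrin (Agrn). The members were taken by gene symbol from a table of 54532 genes, and each of the 10 symbols matched 1 protein-coding row. All mice were wild-type C57BL/6 pups labelled and operated on at postnatal day 7, and each group holds 3 libraries. Sham pups had the control operation, and VO (volume overload) pups had fistula surgery, which returns extra blood to the heart. CsA pups had the same fistula and injections of cyclosporin A, which inhibits the phosphatase calcineurin. No group with cyclosporin A and a sham operation was analysed here, and the labels name neither a vehicle, a dose nor the age at harvest. Whether the libraries of a group come from different animals is not stated either, and p-values describe the spread among these libraries alone, and that spread may be technical.

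Laminins are cross-shaped trimers of 1 alpha, 1 beta and 1 gamma chain that polymerise on the cell surface and start basement membrane assembly. Nidogens link the laminin gamma chain to the collagen IV network, and perlecan and agrin bind laminin and nidogen and carry heparan sulfate. In the heart, a basement membrane surrounds every cardiomyocyte and underlies the endothelium. Lama2 is the main alpha chain around muscle fibres, and Lama4 and Lama5 are the alpha chains of vessels.

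Values are FPKM as the authors deposited them, fragments scaled to the deposited gene length and the authors' library size. A comparison of levels between genes rests on those lengths, which ran from 5174 bases (Nid2) to 16338 bases (Lama2) among the members. Whether they match the transcripts present was not tested. The libraries held 12046288 to 15986747 fragments assigned to genes, and a member had between 401 fragments (Lama5) and 19437 fragments (Hspg2) in a library. VO 3 had 11% of its fragments from mitochondrially encoded genes, against 22.2% to 26.3% elsewhere. It also had the most fragments but the fewest genes above 0, at 17003 against 19619 to 20479 elsewhere. The atrial light chain Myl7 reached 235 FPKM in Sham 1, 269.7 FPKM in Sham 3 and 68.3 FPKM in CsA 3, against 0.959 to 13.2 FPKM in the other 6 libraries. The ventricular light chain Myl2 was at 511 to 1506 FPKM in all 9 libraries. Sham 2 also stood apart in the X-inactivation RNA Xist (0.00401 FPKM, against 10.2 to 66.3 FPKM in the other libraries) and in the Y-linked gene Ddx3y (18.6 FPKM, against 0 in the others). The part of atrial tissue and of sex in the results was not tested. Differences were tested with limma on log2(FPKM + 1) over the 13477 genes whose mean reached 0.5 FPKM, which include all 10 members. A log2 difference is on that scale, and a gene passed at a Benjamini-Hochberg adjusted p under 0.05 over all genes.

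By FPKM, Lamc1 was the highest member, with a mean of 102 FPKM over the 9 libraries, and Lama5 the lowest, with 6.09 FPKM. In between lay Nid1 (84.1 FPKM), Hspg2 (70.9 FPKM), Lamb2 (43.7 FPKM), Lamb1 (36.4 FPKM), Lama4 (21.3 FPKM), Lama2 (18.8 FPKM), Nid2 (16.2 FPKM) and Agrn (11.8 FPKM). No neighbours in this order had separate ranges over the libraries. Within libraries, Lamc1 exceeded Nid1, Hspg2 exceeded Lamb2, Lamb1 exceeded Lama4 and Agrn exceeded Lama5 in 9 of 9. Nid1 exceeded Hspg2 and Nid2 exceeded Agrn in 8 of 9. Lamb2 exceeded Lamb1, Lama4 exceeded Lama2 and Lama2 exceeded Nid2 in only 6 of 9, so the order of these neighbours was not set.

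Summed over a chain class, the FPKM of the gamma chain was the highest and that of the alpha chains the lowest. These sums also rest on the deposited gene lengths, such as 16338 bases for Lama2, 8272 for Lamc1 and 6082 for Lamb2. They do not give the proportions of the chains in laminin trimers. The alpha chains summed to 49.0 ± 3.01 FPKM in Sham, 38.3 ± 7.18 FPKM in VO and 51.5 ± 2.68 FPKM in CsA (SD, n = 3). The beta chains summed to 93.9 ± 9.54, 61.3 ± 5.25 and 85.0 ± 7 FPKM in the same order. Lamc1 alone stood at 109 ± 7.68, 86.4 ± 16.3 and 112 ± 7.1 FPKM.

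**Figure D1:**
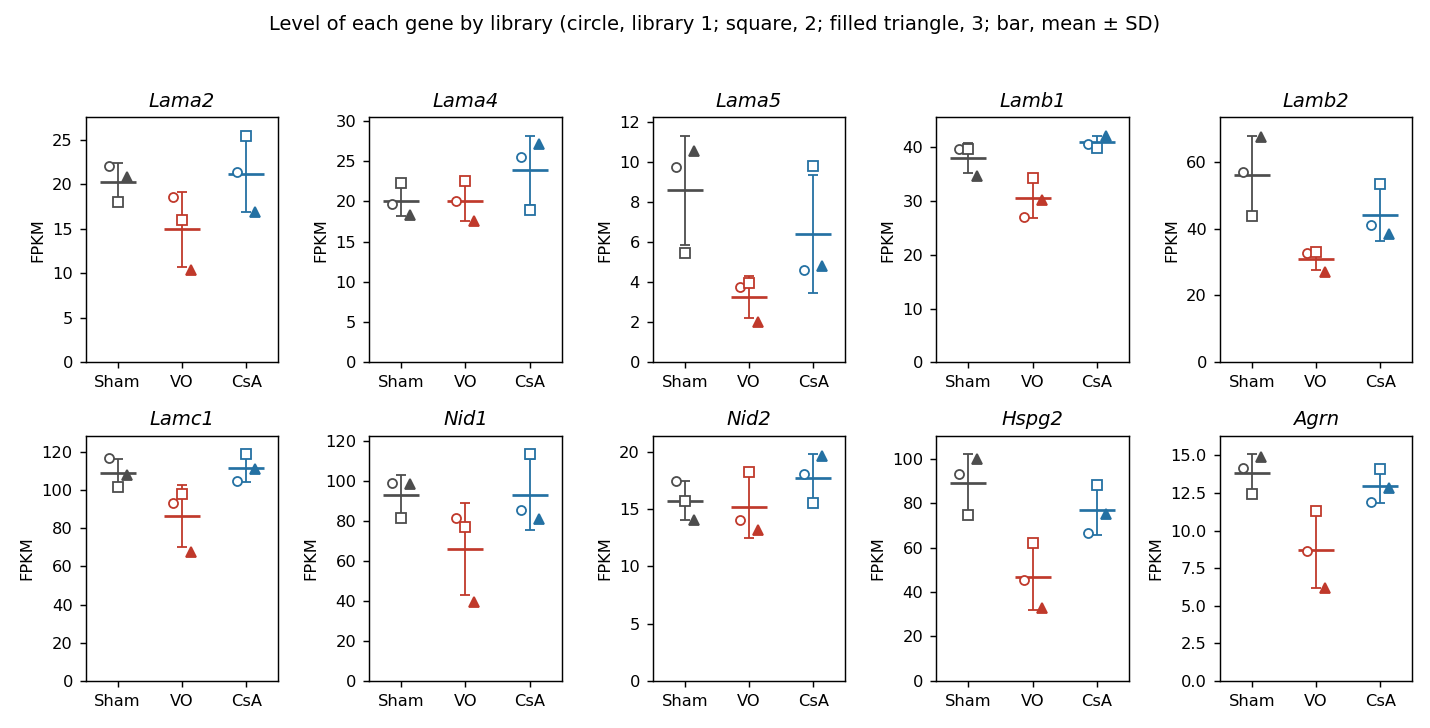
FPKM of each of the 10 genes (vertical axis, from 0) in the 3 Sham, 3 VO and 3 CsA libraries, with circles, squares and triangles for libraries 1, 2 and 3 and bars for the mean ± SD. The VO libraries lie below all Sham libraries for 7 genes, and the Lama4, Nid2 and Lama2 ranges overlap.

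VO was first compared with Sham, for the effect of the fistula on these transcripts. Only Lamb2 fell, and only at the threshold. The fitted differences of Lama5, Hspg2 and Agrn were of similar size but did not pass, and Lama4 and Nid2 had values near 0. In limma 1 of 10 members passed, against 4.76% of all tested genes (642 of 13477; 2.72% lower), and at an unadjusted p under 0.05 there were 4 members, against 29.3% of all genes. All 10 members had a log2 difference below 0, with a median of -0.50, where 49.6% of all tested genes lay below 0 and the median was 0.003. This count depended on which scaling was used. With median-of-ratios scaling and with scaling without mitochondrially encoded genes it stayed at 10, with medians of -0.50 and -0.58. In these settings 49.3% and 55.2% of all tested genes lay below 0. In voom on fragments recovered from the values, scaled to their own totals, 8 members lay below 0, with a median of -0.43. Lama4 and Nid2 lay above 0. Of all tested genes 44.9% then lay below 0, and the median was 0.078.

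Lama2 (ENSMUSG00000019899, chromosome 10, 26980036 to 27619758 in GRCm38) was at 22.1, 18.0 and 20.8 FPKM in Sham libraries 1 to 3. The VO libraries were at 18.6, 16.0 and 10.4 FPKM and the CsA libraries at 21.4, 25.4 and 16.9 FPKM, in the same order of numbers, which is kept below. VO 3 was the lowest library of all, and the Sham and VO ranges overlapped. The log2 difference of VO from Sham was -0.45 ± 0.225 (SE; limma adjusted p = 0.216). Lama4 (ENSMUSG00000019846, chromosome 10, 38965515 to 39110188), the alpha chain of small vessels, was at 19.7, 22.2 and 18.3 FPKM in Sham, 20.1, 22.5 and 17.6 FPKM in VO and 25.5, 19.0 and 27.1 FPKM in CsA. The Sham and VO values interleaved, and the 2 highest libraries were CsA 1 and CsA 3. Its log2 difference of VO from Sham was -0.0050 ± 0.173 (95% interval -0.39 to 0.38; limma adjusted p = 0.99).

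Lama5 (ENSMUSG00000015647, chromosome 2, 180176373 to 180225859), a chain of mature endothelial and epithelial basement membranes, was at 9.79, 5.49 and 10.5 FPKM in Sham, 3.76, 3.96 and 2.04 FPKM in VO and 4.62, 9.82 and 4.83 FPKM in CsA. Sham 1, Sham 3 and CsA 2 were high, the other 6 libraries were at or below 5.49 FPKM, and every VO library lay below every Sham library. The mean was 8.61 ± 2.73 FPKM in Sham and 3.25 ± 1.05 FPKM in VO (SD, n = 3), a log2 difference of -1.16 ± 0.318 (limma adjusted p = 0.0586).

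Of the beta chains, Lamb1 (ENSMUSG00000002900, chromosome 12, 31265234 to 31329644) was at 39.6, 39.5 and 34.7 FPKM in Sham, 27.1, 34.2 and 30.1 FPKM in VO and 40.6, 39.8 and 42.1 FPKM in CsA. The VO libraries were the 3 lowest, and VO 2 lay just below Sham 3. Its log2 difference of VO from Sham was -0.31 ± 0.144 (limma adjusted p = 0.184). Lamb2 (ENSMUSG00000052911, chromosome 9, 108479736 to 108490530), which can take the place of Lamb1 and is enriched at neuromuscular junctions and in smooth muscle, was at 56.9, 43.9 and 67.3 FPKM in Sham, 32.7, 33.0 and 26.9 FPKM in VO and 41.0, 53.2 and 38.3 FPKM in CsA. All VO libraries lay below all Sham and CsA libraries, and the Sham and CsA ranges overlapped. Lamb2 fell in VO, from 56.0 ± 11.8 to 30.9 ± 3.41 FPKM (SD, n = 3), a log2 difference of -0.82 ± 0.201 (limma adjusted p = 0.0499).

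Lamc1 (ENSMUSG00000026478, chromosome 1, 153218922 to 153332786), the gamma chain of nearly all laminins of the heart, was at 117, 102 and 108 FPKM in Sham, 93.2, 98.1 and 67.8 FPKM in VO and 105, 119 and 111 FPKM in CsA. VO 3 lay well below the other 8 libraries, while VO 1 and VO 2 lay just below the lowest Sham library. The log2 difference of VO from Sham was -0.35 ± 0.181 (limma adjusted p = 0.233).

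Nid1 (ENSMUSG00000005397, chromosome 13, 13437551 to 13512269), the abundant nidogen, was at 98.9, 81.6 and 98.6 FPKM in Sham, 81.5, 77.0 and 39.4 FPKM in VO and 85.4, 113 and 80.7 FPKM in CsA. VO 3 was again far below the rest, and VO 1 was level with Sham 2. The log2 difference of VO from Sham was -0.55 ± 0.276 (limma adjusted p = 0.214). Nid2 (ENSMUSG00000021806, chromosome 14, 19751265 to 19811787), which binds many of the same partners, was at 17.5, 15.7 and 14.1 FPKM in Sham, 14.1, 18.3 and 13.2 FPKM in VO and 18.1, 15.6 and 19.6 FPKM in CsA. All 3 groups overlapped, and the log2 difference of VO from Sham was -0.058 ± 0.166 (95% interval -0.43 to 0.31; limma adjusted p = 0.846).

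Hspg2 (ENSMUSG00000028763, chromosome 4, 137468769 to 137570630), perlecan, a multidomain proteoglycan that also stores growth factors, was at 93.1, 74.9 and 99.7 FPKM in Sham, 45.2, 62.1 and 32.7 FPKM in VO and 66.6, 88.4 and 75.4 FPKM in CsA. The 3 VO libraries were the lowest of the 9. The mean was 89.3 ± 12.9 FPKM in Sham and 46.7 ± 14.8 FPKM in VO (SD, n = 3), a log2 difference of -0.96 ± 0.241 (limma adjusted p = 0.0511). Agrn (ENSMUSG00000041936, chromosome 4, 156165290 to 156197488), agrin, which organises synapses and binds dystroglycan, was at 14.2, 12.4 and 14.9 FPKM in Sham, 8.63, 11.3 and 6.18 FPKM in VO and 11.9, 14.1 and 12.8 FPKM in CsA. It had the same order of VO libraries as Hspg2, all below the other 6, and a log2 difference of -0.64 ± 0.194 (limma adjusted p = 0.0715).

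In 7 of the 10 members every VO library lay below every Sham library. Of all tested genes, 17% had that separation and 33.1% were separated in either direction. Lamb2 kept its call without VO 3 (adjusted p = 0.0474) or CsA 2 (0.0472). It lost the call without Sham 1 (adjusted p = 0.195), Sham 2 (0.0537), Sham 3 (0.174), VO 1 (0.0925), VO 2 (0.0625), CsA 1 (0.0741) or CsA 3 (0.0781). Hspg2 passed without VO 3 (adjusted p = 0.0444) or VO 2 (0.0355), Agrn without VO 2 (0.0402) and Lama5 without CsA 2 (0.0453). Without VO 3 the differences of Nid1, Lama2 and Lamc1 were -0.22, -0.22 and -0.18, and the median over the members was -0.26.

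**Figure D2:**
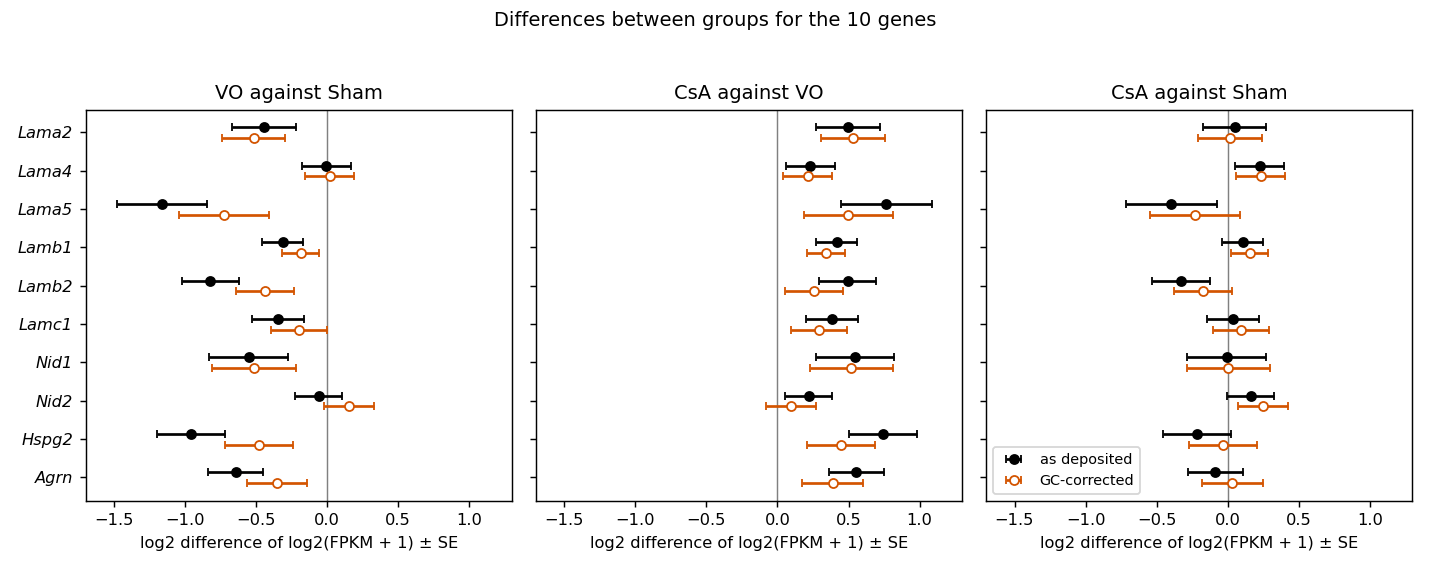
Log2 differences between groups (horizontal axis, log2(FPKM + 1), ± SE) for the 10 genes in each of the 3 comparisons, from the values as deposited (filled) and after a correction of each library for GC content (open). As deposited, all 10 genes lie below 0 in VO against Sham and above 0 in CsA against VO, comparisons that share the VO libraries.

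The GC content of the transcripts moved with these differences. Across the 10 members, which share their libraries, the log2 difference of VO from Sham and the GC content of the longest transcript had a Spearman correlation of -0.72 (n = 10), and over all tested genes it was -0.53. Hspg2, Lama5 and Lamb2, the GC-richest members at 60.9%, 59.9% and 58.8%, had the most negative differences, while Lama2 had the lowest GC content, 47.7%. The GC tilt of a library is the median deviation of the tenth of genes highest in GC minus that of the tenth lowest. It was 0.45, 0.22 and 0.45 in the Sham libraries, -0.90, -0.31 and -0.077 in the VO libraries and -0.21, 0.26 and 0.11 in the CsA libraries. The 3 libraries highest in Lama5 and Lamb2 (Sham 1, Sham 3 and CsA 2) were the 3 with the highest tilt. At the low end VO 3 departed from the tilt. At -0.077, it was the lowest library in Lama5 (2.04 FPKM) and Lamb2 (26.9 FPKM). VO 1 and VO 2 had the lowest tilts, -0.90 and -0.31. They were at 3.76 and 3.96 FPKM in Lama5 and at 32.7 and 33.0 FPKM in Lamb2, below every CsA and Sham library.

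After the GC trend was removed from each library, 0 of 10 members passed in VO against Sham and limma called 0 genes in all (2864 at an unadjusted p under 0.05). Every VO library had a lower tilt than every Sham library, so the correction also removes any group difference that runs with GC content. Such a difference and a technical tilt of the libraries cannot be told apart here. Lamb2 was then at -0.44 ± 0.204 (adjusted p = 0.255), Hspg2 at -0.48 ± 0.239, Lama5 at -0.73 ± 0.316 and Agrn at -0.35 ± 0.213. Nid1 at -0.51 ± 0.293 and Lama2 at -0.52 ± 0.223 were close to their values before the correction. With the correction and without VO 3, a setting chosen with these values in view, the median of the members was -0.13 and 7 of 10 lay below 0. The lowest was then Lama5, at -0.42 ± 0.282, and Nid1 was at -0.14 ± 0.165. Lamb2 was at -0.26 ± 0.177, Hspg2 at -0.17 ± 0.111 and Agrn at -0.072 ± 0.0959. The 3 members above 0 were Lamc1, Lama4 and Nid2.

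**Figure D3:**
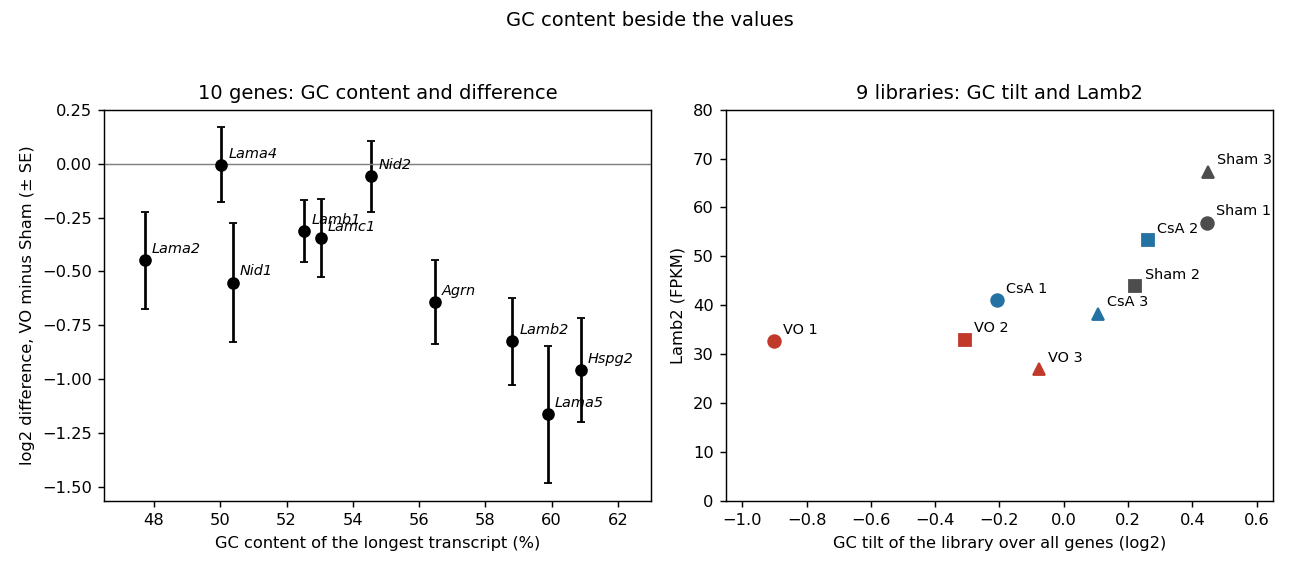
Left, the log2 difference of VO from Sham (± SE) against the GC content of the longest transcript for the 10 genes; right, the Lamb2 level in FPKM against the GC tilt of each of the 9 libraries. The GC-richest genes have the most negative differences, and Lamb2 is highest in Sham 3 and Sham 1, the libraries of the highest tilt. Lamb2 is lowest in VO 3, at a tilt of -0.077, and not in VO 1, the library of the lowest tilt.

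Cell type markers were read beside these values. The summed level of 12 endothelial markers was 456 to 534 FPKM in Sham, 325 to 448 FPKM in VO and 457 to 545 FPKM in CsA. That of 10 smooth muscle and pericyte markers was 786 to 1104, 621 to 753 and 790.1 to 872 FPKM, so for both lists every VO library was below the other 6. In the log2 difference of VO from Sham, 4 endothelial markers lay above 0 and 8 below. Of the 9 tested smooth muscle and pericyte markers, 0 lay above and 9 below. The sum of 10 fibroblast markers was higher in every VO library than in the other 6, at 879 to 1064, 1111 to 1186 and 940.3 to 1105 FPKM, with 7 markers above 0 and 3 below 0 in the log2 difference of VO from Sham. The 10 ventricular cardiomyocyte markers (13743 to 17142, 10298 to 17484 and 14377 to 15114 FPKM) and the 6 mesothelial and epicardial markers (21.8 to 33.5, 20.9 to 31.4 and 26.0 to 35.1 FPKM) overlapped between groups. The 6 atrial markers summed to 7.33 FPKM in Sham 2 and to 574 and 601 FPKM in Sham 1 and Sham 3, against 8.51 to 16.3 FPKM in VO and 7.95 to 151 FPKM in CsA. Of the other lists, 8 macrophage markers were at 139 to 162, 82.6 to 169.7 and 122 to 159 FPKM. The 6 lymphatic markers were at 32.5 to 43.9, 26.6 to 31.7 and 30.8 to 41.4 FPKM, the 5 Schwann cell markers at 3.64 to 7.4, 4.18 to 5.12 and 3.85 to 8.54 FPKM, and the 5 erythroid markers at 710 to 895, 591 to 2038 (the highest in VO 3) and 666 to 1039 FPKM. All 4 adipocyte markers and all 6 skeletal muscle markers had means under 0.5 FPKM, with 3 of the latter at 0 in every library. In VO against Sham, 2 endothelial, 1 smooth muscle and 1 lymphatic marker fell, and 1 fibroblast and 1 macrophage marker rose; 0 markers of the ventricular, atrial, mesothelial, Schwann cell and erythroid lists passed. The part of these marker levels in the differences was not tested, and in bulk tissue fewer cells of a type and less RNA per cell cannot be told apart. When the 3 libraries high in Myl7 (CsA 3, Sham 1 and Sham 3) were left out, the lone Sham 2 was assumed to vary like the other groups. Sham 2 was also the library apart in Xist and Ddx3y, so in that fit sex and the Sham group cannot be told apart. All 10 members were below 0 in VO against Sham in that fit, with a median of -0.37 and Lamb2 at -0.50.

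CsA was compared with VO to see how cyclosporin A treated fistula pups differed from untreated ones. All 10 members had higher means in CsA, with log2 differences from 0.22 (Nid2) to 0.77 (Lama5) and a median of 0.50, and none passed. In limma 0 of 13477 genes passed (0%), voom on the recovered fragments also called 0, and 2219 genes (16.5%), 5 of them members, had an unadjusted p under 0.05. Because the VO libraries enter both comparisons, a library low in VO lowers the first and raises the second, and the opposite signs of the 2 comparisons are not separate evidence.

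Among the laminin chains, the log2 difference of CsA from VO was 0.50 ± 0.225 for Lama2, 0.23 ± 0.173 for Lama4 and 0.77 ± 0.318 for Lama5 (SE). Lama5 lay above all VO libraries in every CsA library, but CsA 2 stood far above CsA 1 and CsA 3. Lamb1 had 0.42 ± 0.144, Lamb2 0.49 ± 0.201 and Lamc1 0.38 ± 0.181, and for each the CsA libraries lay above all VO libraries. Nid1 had 0.54 ± 0.276 and Nid2 0.22 ± 0.166, with overlapping groups. Hspg2 had 0.74 ± 0.241 (limma adjusted p = 0.221, the smallest of the members) and Agrn 0.55 ± 0.194, again with separate groups. In all, 6 of 10 members had CsA above VO without overlap, against 10.9% of all tested genes, and 0 had CsA below VO, against 10.3%. Without VO 3 the median was 0.31 and Nid1 was at 0.22, and after the GC correction Lamb2 was at 0.26 ± 0.204 and Hspg2 at 0.45 ± 0.239.

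The comparison of CsA with Sham asked how far the treated fistula hearts differed from the control operation. The log2 difference of CsA from Sham was above 0 for 5 members and below 0 for 5, and none passed. In limma 0 of 13477 genes passed (0%), voom called 0, and 200 genes (1.48%), none of them a member, had an unadjusted p under 0.05. The median over the members was 0.014. The most negative differences were those of Lama5, at -0.40 ± 0.318 (95% interval -1.11 to 0.32), and Lamb2, at -0.33 ± 0.201 (-0.78 to 0.12), and the most positive that of Lama4, at 0.23 ± 0.173 (-0.16 to 0.61). Hspg2 was at -0.21 ± 0.241 (-0.75 to 0.33) and Nid1 at -0.0077 ± 0.276 (-0.63 to 0.61). These intervals do not show that the groups are alike. Without the libraries high in Myl7, Lama5 was at 0.26 ± 0.479 and Nid1 at 0.27 ± 0.516. That fit was against Sham 2 alone, the library apart in Xist and Ddx3y. Lamb1 was the 1 member whose CsA libraries lay above all Sham libraries, by a narrow margin between CsA 2 and Sham 1. Of all tested genes, 9.74% were separated in this comparison, 4.8% higher and 4.94% lower.

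The make-up of each class, which does not depend on the scaling of a library, differed among libraries. Lama5 took 19%, 12% and 21.2% of the alpha chain FPKM in the Sham libraries, 8.88%, 9.32% and 6.81% in the VO libraries and 8.97%, 18.1% and 9.88% in the CsA libraries. Every VO share was below every Sham share, while the CsA libraries spanned both. Lama4 took 36.9% to 48.6% in Sham, 47.4% to 58.6% in VO and 35.0% to 55.5% in CsA. Lama2 took 39.4% to 42.8%, 34.5% to 43.8% and 34.6% to 46.9%, with all groups overlapping.

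The share of Lamb2 in the beta chains was 59%, 52.6% and 66% in Sham, 54.7%, 49.1% and 47.3% in VO and 50.3%, 57.2% and 47.6% in CsA. VO 1 lay above Sham 2, so the groups overlapped. Nid2 took 15%, 16.1% and 12.5% of the nidogen FPKM in Sham, 14.7%, 19.2% and 25.1% in VO and 17.5%, 12.1% and 19.6% in CsA, with VO 3 the highest. The ratio of Agrn to Hspg2 was 0.152, 0.166 and 0.149 in Sham, 0.191, 0.182 and 0.189 in VO and 0.179, 0.159 and 0.17 in CsA. All VO ratios lay above the other 6. These ratios were compared without a test. On the log2(FPKM + 1) scale, which is not the log2 of these ratios and shrinks differences of low genes, the VO minus Sham difference of Agrn exceeded that of Hspg2 by 0.31, and by 0.12 after the GC correction. That of Lama5 minus that of Lama2 was -0.72, -0.90 with a pseudocount of 0.1, and -0.21 after the GC correction.

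**Figure D4:**
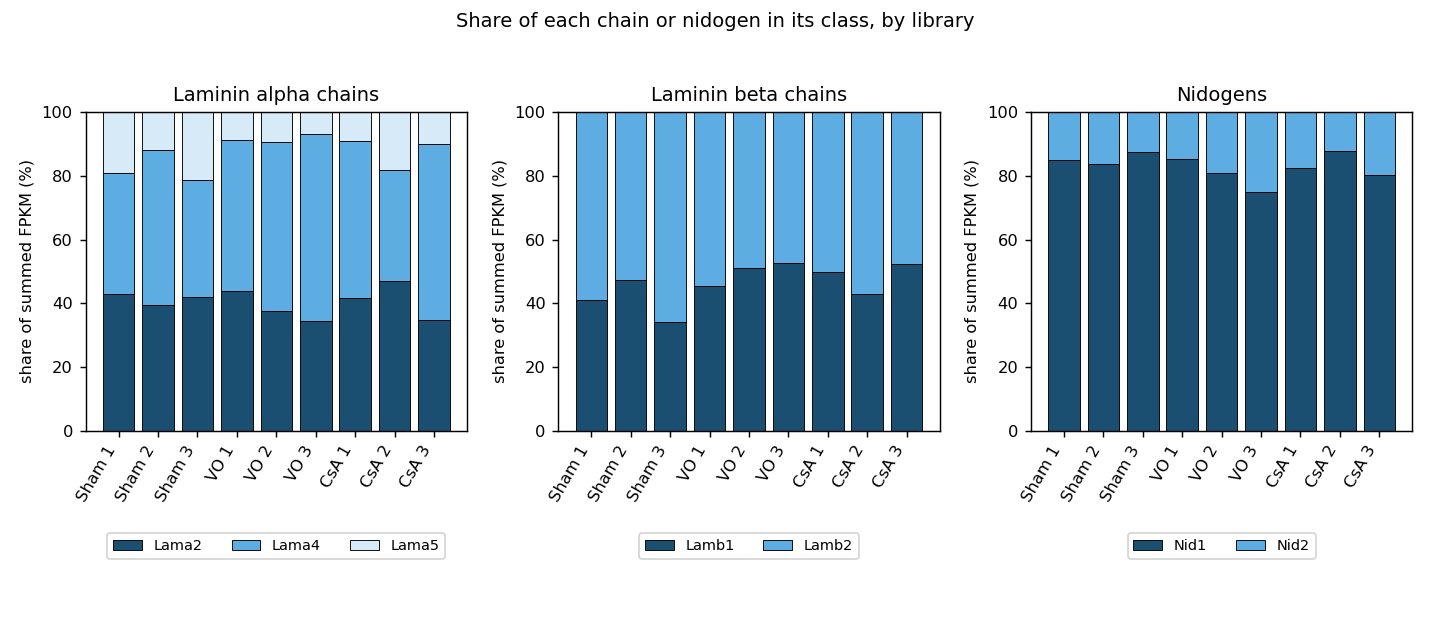
Share of each gene in the summed FPKM of its class (vertical axis, percent) in each of the 9 libraries, for the laminin alpha chains, the beta chains and the nidogens. The Lama5 segment is 6.81% to 9.32% in VO and 12% to 21.2% in Sham.

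Across the 9 libraries some members had closely similar patterns and others did not. Pearson correlations of log2(FPKM + 1) are given as a description, since all genes share the libraries, their depth and their GC tilt. The closest pair of members was Hspg2 and Agrn (r = 0.99, also 0.99 after the GC correction and 0.99 without VO 3). Next came Lama5 and Lamb2 (0.97, 0.96 and 0.97) and Lama2 and Nid1 (0.97, 0.96 and 0.92). Lamc1 was closest to Nid1 (0.96), a value of 0.78 without VO 3, and Lamb1 to Agrn (0.74). Without VO 3, Lama2 had 0.51 with Hspg2 and 0.49 with Agrn, against 0.81 and 0.83 over all 9 libraries. Lamb1 then had 0.72 with Agrn. Lama4 and Nid2 were closest to each other (0.84). Lama4 had 0.55 with Lamb1, -0.17 with Lamb2 and -0.16 with Lama5, and Nid2 had 0.71 with Lamb1, 0.57 with Lamc1 and 0.066 with Lamb2.

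Outside the members, 9040 protein-coding genes averaging 2 FPKM or more were compared, and those most like Hspg2 were Shank3 (r = 0.99), Cic, Map4, Hdlbp and Nup214. Those most like Lama2 were Ston1 (r = 0.98), Txlnb, Setbp1, Atrnl1 and Sbf2. Shank3 (0.995), Cic (0.995), Map4 (0.993) and Hdlbp (0.992) were each more like Hspg2 than Agrn was (0.991). Ston1 (0.977) and Txlnb (0.969) were more like Lama2 than Nid1 was (0.968). Such closeness was thus not particular to the pairs of members. These lists name likeness of pattern over 9 libraries only.

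**Figure D5:**
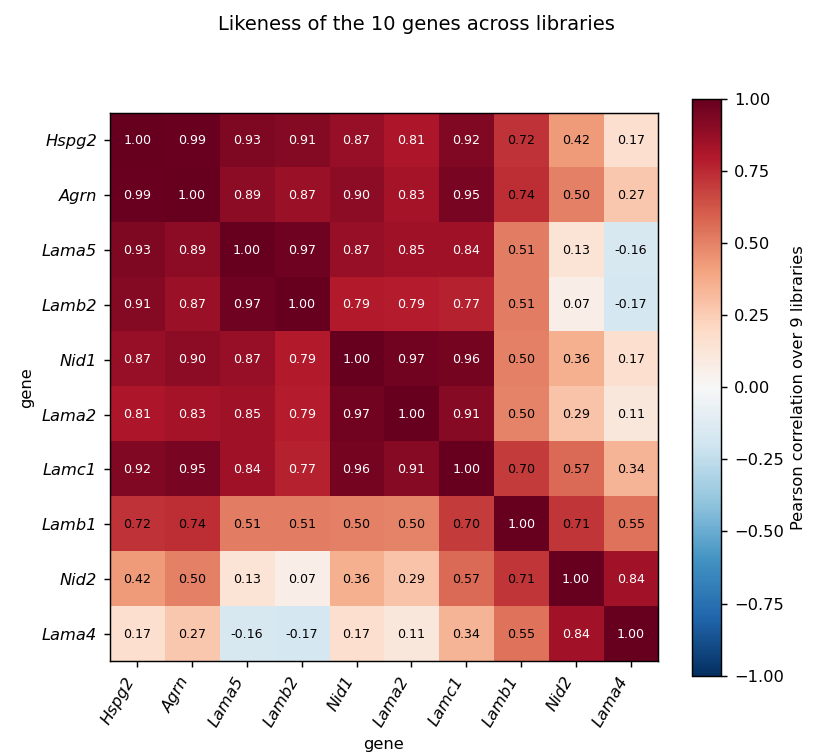
Pearson correlation of log2(FPKM + 1) over the 9 libraries for each pair of the 10 genes (colour, from -1 to 1, with the value in each cell). Hspg2, Agrn, Lama5, Lamb2, Nid1, Lama2 and Lamc1 form a block of 0.77 or more, and Lama4, Nid2 and Lamb1 stand outside it.

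The promoters of the 2 closest pairs of members were set side by side, because genes that move together invite a look at their start sites. RefSeq promoter windows (GRCm38.p6) were found for 7 of the 10 members: Lama2, Lama5, Lamb1, Lamb2, Nid1, Hspg2 and Agrn, the last with 2 start sites. Each window is the 250 bases before a start site, and the sequences below stop at the first base of the gene in the deposited table. They run 5′ to 3′ on the gene's strand, with the GC box GGGCGG, searched on both strands, in capitals. The pairs were chosen after their likeness was seen.
Hspg2, chr4:137468553-137468768, plus strand: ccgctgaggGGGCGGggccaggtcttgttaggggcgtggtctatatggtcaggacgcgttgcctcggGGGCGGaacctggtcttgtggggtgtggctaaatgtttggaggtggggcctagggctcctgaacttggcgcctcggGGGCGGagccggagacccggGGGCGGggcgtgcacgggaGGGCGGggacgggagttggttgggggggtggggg
Agrn, chr4:156197489-156197738, minus strand: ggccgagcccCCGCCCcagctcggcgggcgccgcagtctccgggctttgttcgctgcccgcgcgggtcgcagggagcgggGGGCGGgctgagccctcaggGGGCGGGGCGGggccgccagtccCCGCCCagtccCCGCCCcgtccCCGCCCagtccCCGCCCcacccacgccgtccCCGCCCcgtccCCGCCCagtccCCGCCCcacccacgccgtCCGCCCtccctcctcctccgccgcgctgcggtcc
Lama5, chr2:180225860-180226109, minus strand: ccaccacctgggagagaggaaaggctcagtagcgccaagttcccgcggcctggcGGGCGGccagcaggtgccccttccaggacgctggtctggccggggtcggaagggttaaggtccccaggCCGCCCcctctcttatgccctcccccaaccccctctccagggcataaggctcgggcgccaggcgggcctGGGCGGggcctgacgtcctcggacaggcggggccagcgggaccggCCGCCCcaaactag
Lamb2, chr9:108479612-108479735, plus strand: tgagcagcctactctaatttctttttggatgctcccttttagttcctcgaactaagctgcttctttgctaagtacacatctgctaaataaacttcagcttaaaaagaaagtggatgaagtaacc

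Counted on both strands, overlaps included, the 250-base windows held 5 GC boxes in Hspg2, 12 in the upstream Agrn window, 4 in Lama5 and 0 in Lamb2. Their GC content was 70%, 83.6%, 72.4% and 43.6%, against a median of 52.4% over 32851 windows. A GC box was found in 6 of the 8 member windows and in 32.7% of all windows. The pair Hspg2 and Agrn (upstream window) thus shared GC-rich windows with several boxes, and the pair Lama5 and Lamb2 did not. The Hspg2, Lamb2, Lamb1 and Nid1 windows ran into the deposited gene. The printed 216 bases of Hspg2 and 124 bases of Lamb2 held 5 and 0 boxes, at 70.8% and 37.9% GC. The other Agrn window (2 boxes, 60.8% GC) and the Lama2 window lay inside the deposited genes. For 7 of the 8 member windows the bases that follow were in a transcript of the gene. The letters GGAAA, the core of sites for NFAT, the factors that calcineurin activates, searched on both strands, was in 5 of 8 member windows and in 55.6% of all windows. The TATA box, TATAAA on either strand, was in 0 of 8 member windows and in 12.4% of all. A match is a description of the letters and not a bound site.

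Other genes of the basement membrane were read from lists. Among other laminin chains, Lamb3, a beta chain of epithelial basement membranes, was at 0.551 to 2.43 FPKM and did not pass the test in any comparison. Lama3 and Lamc3 had means of 0.439 and 0.0745 FPKM, and Lama1 was at 0 in all libraries, where 3 fragments would be 0.018 to 0.026 FPKM. Of 8 collagen IV, XV and XVIII chains, 1 fell in VO against Sham and 0 rose (median log2 -0.32). This was Col18a1, the collagen whose end is cleaved to endostatin, at 8.59, 6.61 and 7.76 FPKM in Sham and 2.95, 4.37 and 4.51 FPKM in VO (log2 -0.82 ± 0.173, limma adjusted p = 0.0408). The groups were separate, and after the GC correction it was at -0.34 ± 0.131 (adjusted p = 0.182). Col4a1, the main network collagen, averaged 217 ± 23.6 FPKM in Sham against 139 ± 38.0 FPKM in VO (SD, n = 3; limma adjusted p = 0.0812), and its partner Col4a2 averaged 153 ± 20.6 FPKM in Sham against 121 ± 24.3 FPKM in VO (adjusted p = 0.261; limma).

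Of 13 tested integrins and other laminin or agrin receptors, 1 fell in VO against Sham, the heparan sulfate proteoglycan Sdc3 (log2 -0.65 ± 0.134, limma adjusted p = 0.0408; -0.26 ± 0.128 after the GC correction). The laminin receptor subunit Itga3 averaged 3.17 ± 0.213 FPKM in Sham against 1.69 ± 0.613 FPKM in VO (adjusted p = 0.0547). In the 13 tested genes of the dystrophin-glycoprotein complex, 0 passed (median -0.24). Its laminin receptor Dag1 averaged 107 ± 19.9 FPKM in Sham against 58.6 ± 18.8 FPKM in VO, with separate groups (log2 -0.90 ± 0.278, adjusted p = 0.0765; -0.76 after the GC correction). Of 12 tested enzymes that add the laminin-binding sugar to dystroglycan, 0 passed (median -0.26).

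Of 19 tested enzymes of heparan sulfate, the chains that perlecan and agrin carry, 1 fell. This was B3gat3, which completes the linker to the protein (log2 -0.78 ± 0.163, limma adjusted p = 0.0408; -0.26 ± 0.117 after the GC correction). The sulfotransferase Hs2st1 averaged 4.58 ± 0.538 FPKM in Sham against 7.1 ± 0.61 FPKM in VO (adjusted p = 0.0628). Of 18 tested minor basement membrane proteins and 13 tested matrix proteases and inhibitors, 0 passed (medians -0.30 and -0.28). Mmp14, a membrane-bound protease, averaged 14.3 ± 2.7 FPKM in Sham against 8.76 ± 1.18 FPKM in VO (adjusted p = 0.0715). The GC content of Col18a1, Sdc3 and B3gat3 was 60.8%, 58.7% and 61.6%. In CsA against VO and in CsA against Sham, 0 genes of these lists passed in limma.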

How the data were processed

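Gene FPKM, as the authors computed and deposited them, were read for 9 libraries, 3 per group by the labels. The submitters' processing notes list GATK 3.7, DESeq2 1.20.0, the counter featureCounts 1.5.0-p3, the assembler StringTie 1.3.3b and the aligner HISAT2 2.0.5 without saying which made the table, and the builds GRCm38 and mm10. The annotation release and the use of strand are not given in the sources used here, so overlapping genes may share reads. Low values were whole multiples of 1 fragment (100% within 0.1), which gave back the fragments of each gene and each library's total. The library size used by the authors was not that total. It was 1.02, 0.999 and 0.977 times the total in Sham libraries 1 to 3. In VO it was 1.04, 1.07 and 1.08 times the total, and in CsA 0.99, 0.956 and 1.03 times. Per the labels' protocols, Trizol RNA went into NEBNext Ultra libraries.

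Computed here were log2(FPKM + 1) for genes whose mean reached 0.5 FPKM, and 1 fit of all 9 libraries without covariates in limma 3.58.1 (R 4.3.3), with a mean-variance trend, two-sided, with Benjamini-Hochberg adjustment at 0.05 within each comparison. The steps were tested on simulated data. For the GC correction, each library's deviations from the gene means were smoothed by loess on the GC content of the longest GENCODE M21 transcript, mitochondrially encoded genes aside, and the trend was subtracted. That release held 99.93% of the identifiers, 98.33% of them at the deposited coordinates. Alternatives were pseudocounts, filters, scalings, the GC correction, voom on recovered fragments, a replicate block, 2 groups only and libraries left out. Counting precision covers counting error only. The members, lists and alternatives were chosen with earlier results of these data known. Named were all 10 members, up to 3 genes of smallest p per list and all list genes past the test, and, for likeness, the closest member and the 5 genes closest to Hspg2 and Lama2; not all are printed, and 1 gene of the lists is not reported here. Plots used Python 3.11.15 and matplotlib 3.10.9.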

Additional observations from a re-analysis of the deposited data

How the results depend on the processing

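In VO against Sham the number of members past the test was 1. It was 0 with pseudocounts of 0.1 or 0.5, no filter on low values, median-of-ratios scaling, the GC correction, only the 2 groups compared or without the 3 libraries high in Myl7. It was 2 with a mean of at least 1 FPKM, 3 with voom, and 0 to 2 with each library left out. All 642 calls became 0 with no filter, with the GC correction and with 2 groups only. They became 1010 with voom, 3 without the libraries high in Myl7, 1 with the GC correction without VO 3, and 0 to 2032 with each library left out (2032 without VO 3, 69 without Sham 2, 1 without Sham 1, and 0 without Sham 3, VO 1, CsA 1 or CsA 3). With the GC correction and without VO 3, 0 members passed. Calls over all genes in CsA against VO went from 0 to 1 with the GC correction without VO 3, and ranged from 0 to 1 with each library left out. In CsA against Sham they ranged from 0 to 3, and there were 3 without the libraries high in Myl7.

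With the replicate number as a block, 0 members and 1 gene in all passed in VO against Sham, and with block and GC correction 0 and 0. Libraries of the same number share only a number: the correlations of their deviations from the group means ran from -0.40 to 0.24. The block changed no other call of a member.

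Signs turned for members near 0. In VO against Sham, Lama4 was at 0.018 after the GC correction (with or without the block), 0.084 with voom and 0.14 with the correction and without VO 3. Nid2 was at 0.16, 0.025 and 0.32 in the same settings, and Lamc1 at 0.030 in the last. With each library left out, Lama4 ran from -0.088 to 0.082 and Nid2 from -0.19 to 0.029. In CsA against VO, Nid2 was at -0.067 with the correction and without VO 3. In CsA against Sham, Nid1 was at 0.026 without mitochondrially encoded genes and 0.0044 after the GC correction (also with the block or without VO 3), and Agrn at 0.033 in the same 3 settings. Without the libraries high in Myl7, Lama4 was at -0.015, Lama5 at 0.26, Lamb2 at 0.090, Nid1 at 0.27, Hspg2 at 0.035 and Agrn at 0.056. With each library left out, Lama2 ran from -0.086 to 0.20, Lamc1 from -0.012 to 0.089 and Nid1 from -0.16 to 0.087. The cause was not tested. The 3 libraries per group limit these comparisons, and the members had 401 or more fragments in each library.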
